A study of Homo sapiens with 16 samples.

Results

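The NEAT1 and MALAT1 locus was examined as all MED1 peaks that overlap a 150 kb window of chromosome 11 (hg19, chr11:65150000-65300000), which holds the starts of NEAT1, near 65.190 Mb, and of MALAT1, near 65.265 Mb. The rule found 13 of the 3464 peaks that 6 lists held in all, and they merged into 4 regions. MED1, a Mediator subunit, was mapped by ChIP-seq in HCT116, a human colorectal carcinoma line, in 8 MED1 samples with 8 inputs. The edited MED14-AID line (OsTir1+/-;Med14-AID+/+) carries an auxin-inducible degron on the Mediator subunit MED14, and its controls carry the same alleles. It was given 500 µM auxin for 3 h and then Nutlin-3a for 1 h, auxin alone, water and then Nutlin-3a, or water alone. WT cells, which are wild-type HCT116, received Nutlin-3a or DMSO for 1 h. Nutlin-3a frees p53 from its inhibitor MDM2. Each MED14-AID condition is 1 library of 1 edited line, and each WT condition is 1 joint list of 2 libraries. No spread between replicates can therefore be set against any difference given here, no test was possible, and every comparison is a description. The lists hold peaks and no read totals, so depth is unknown, and they hold no expression values with which to check the line.

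The window was selected on the fold enrichment of its peaks in these same lists, so fold, width and summit are given as descriptions and support no claim about the locus. NEAT1 and MALAT1 are neighbouring genes for long noncoding RNAs that stay in the nucleus. NEAT1 RNA is the scaffold of paraspeckles, bodies built with proteins such as NONO and SFPQ, and MALAT1 RNA gathers in nuclear speckles, which are rich in splicing factors. NEAT1 is known as a direct transcriptional target of p53, and both RNAs are among the abundant ones in many cell lines. By the RefSeq order of gene starts (GRCh38.p14), SLC25A45 and FRMD8 come before NEAT1. MIR612, FAUP4, ENEMAL and LINC02736 start after it and before MALAT1, which does not say whether any of them lies within NEAT1. TALAM1, an antisense RNA of MALAT1, follows, together with MASCRNA, a small RNA processed from the MALAT1 end. These genes are named by order alone, because the table's build differs from that of the peaks.

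RefSeq lists 2 starts for MALAT1, and their promoter windows are shown because MED1 peaks stood at 2 places near MALAT1. Each window runs from 250 bases before to 50 bases after a start on the plus strand (RefSeq, GRCh38.p14), and capitals mark the motifs found. The first is chr11:65497488-65497787 and the second is chr11:65498795-65499094.
MALAT1 first start: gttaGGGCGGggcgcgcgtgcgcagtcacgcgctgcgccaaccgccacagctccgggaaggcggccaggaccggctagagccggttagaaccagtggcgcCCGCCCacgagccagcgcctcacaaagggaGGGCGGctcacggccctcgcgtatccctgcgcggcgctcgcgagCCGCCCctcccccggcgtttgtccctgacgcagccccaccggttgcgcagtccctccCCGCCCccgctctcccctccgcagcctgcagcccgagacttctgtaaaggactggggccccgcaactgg
MALAT1 second start: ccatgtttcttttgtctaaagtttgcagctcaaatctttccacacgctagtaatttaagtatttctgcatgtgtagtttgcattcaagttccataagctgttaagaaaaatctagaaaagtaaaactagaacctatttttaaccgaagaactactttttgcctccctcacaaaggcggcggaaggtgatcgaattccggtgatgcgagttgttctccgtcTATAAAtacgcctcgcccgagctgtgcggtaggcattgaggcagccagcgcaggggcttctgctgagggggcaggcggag
The windows differ in base composition. The first is 73.7% G or C with 37 CpG dinucleotides, and the second is 46.0% G or C with 14. Among 35116 promoter windows of the same length, the median was 58.7%, and 87.7% had a lower share than the first and 22.6% a lower share than the second. The first window holds the GC box GGGCGG in 5 places on either strand, and the second has none. The second holds 1 TATA box (TATAAA) that begins 30 bases before the start, and the first has none. Of all such promoter windows, 45.0% hold GGGCGG and 11.5% hold TATAAA on either strand. Neither MALAT1 window holds TGANTCA (AP-1, in 7.71% of promoters), CCAAT (34.6%), CACGTG (an E box, 7.26%) or the p53 half-site consensus (6.63%), all searched on both strands. The letters of these motifs do not overlap one another in the windows shown. The starts are 1307 bases apart in GRCh38.p14. Positions were not carried over to the hg19 of the peaks, so no peak was matched to either RefSeq start.

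Across the 6 lists, MED1 was listed most often and highest at the start of NEAT1, and at lower folds at a place upstream of it and at MALAT1. With auxin and Nutlin-3a 1 peak lay in the window, with auxin alone 0, with water and Nutlin-3a 3 and with water alone 2. WT cells had 4 peaks with Nutlin-3a and 3 with DMSO. The peaks covered 755 bases with auxin and Nutlin-3a and 0 with auxin alone, 3458 with water and Nutlin-3a and 3026 with water, and 6369 in WT cells with Nutlin-3a and 4768 with DMSO. The auxin lists were short throughout, with 66 peaks in all with Nutlin-3a and 53 without it, against 522 and 463 with water and 1254 and 1106 in WT cells. The 1 peak among 66 makes 1.52% of its list (Wilson 95% interval 0.268 to 8.10%), and the 0 of 53 has an upper limit of 6.76%. Both bounds reflect peak counting alone. They treat the peaks of a list as independent and say nothing about spread between replicates, and the window was chosen for its peaks. The region at the NEAT1 start was in 5 lists, the one upstream and the one at the MALAT1 start in 3 each, and the one downstream of the MALAT1 start in 2.

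**Figure D1:**
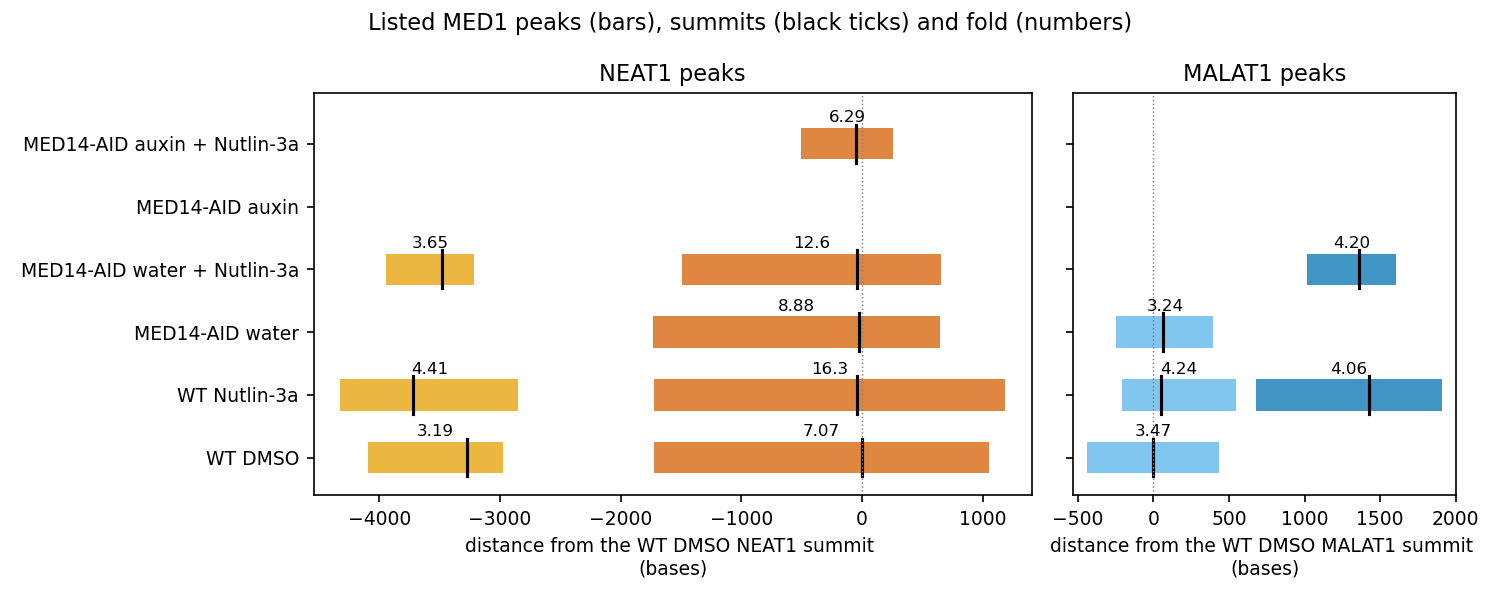
Listed MED1 peaks near NEAT1 (left) and MALAT1 (right) in the 6 lists, drawn to scale as bars against the distance in bases from the WT DMSO summit; black ticks are summits and numbers are the authors' fold. The NEAT1 summits of 5 lists fall within 52 bases, and the peak with auxin and Nutlin-3a (755 bases) lies inside the 4 wider ones.

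At the NEAT1 start, the authors' fold enrichment over background was 6.29 in MED14-AID cells with auxin and Nutlin-3a, and no peak was listed with auxin alone. It was 12.6 with water and Nutlin-3a and 8.88 with water alone. In WT cells it was 16.3 with Nutlin-3a and 7.07 with DMSO. In each of the 3 pairs the list with Nutlin-3a had the higher value or the only one. Of all overlapping peaks, 64.7% had a higher fold with Nutlin-3a in WT cells (815 peaks) and 49.6% with water (359 peaks). Of the 66 peaks with auxin and Nutlin-3a, 51.5% overlapped a peak with auxin alone. The deposited −log10 q, the caller's significance, was 17.7 with auxin and Nutlin-3a, 74.3 with water and Nutlin-3a and 39.5 with water, and 191 in WT cells with Nutlin-3a and 82.6 with DMSO. The order of the 5 lists by −log10 q was not that by fold, since WT DMSO came above both water lists. A −log10 q grows with depth, which is unknown here.

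**Figure D2:**
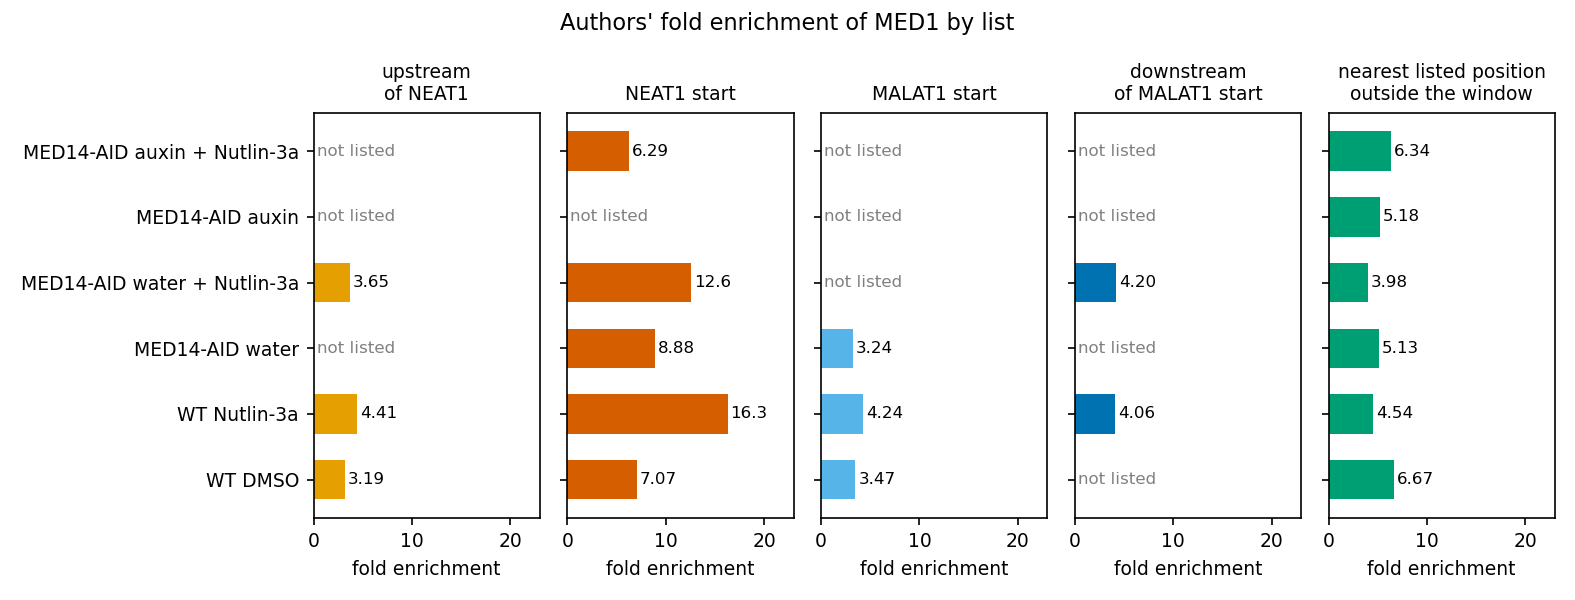
The authors' fold enrichment (horizontal axis, from 0) of each region of the window and of the nearest listed position outside it, with 1 bar for each list that has a peak. The NEAT1 start stands highest, at 16.3 in WT cells with Nutlin-3a against 7.07 with DMSO, and the position outside has its lowest values, 3.98 and 4.54, in the 2 lists with Nutlin-3a and no auxin.

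Within its own list the NEAT1 start peak stood near the top without auxin and nearer the middle with it. It was number 24 of 66 by fold with auxin and Nutlin-3a, number 9 of 522 with water and Nutlin-3a and number 26 of 463 with water. In WT cells it was number 5 of 1254 with Nutlin-3a and number 37 of 1106 with DMSO. Ranks from lists of such different lengths show no change between conditions. Relative to the median fold of its list, the peak was 1.18 times as high with auxin and Nutlin-3a, 2.97 times with water and Nutlin-3a and 2.03 times with water alone. The same ratio was 4.78 in WT cells with Nutlin-3a and 2.22 with DMSO. The list medians themselves differed, at 5.34 with auxin and Nutlin-3a and 3.41 in WT cells with Nutlin-3a. Ratios to them therefore show no change between conditions either. In WT cells with Nutlin-3a the next higher peak lay on chromosome 4, from 3747914 to 3748833, with a fold of 21.4. The next lower lay on chromosome 17, from 27278183 to 27279142, with 15.5.

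**Figure D3:**
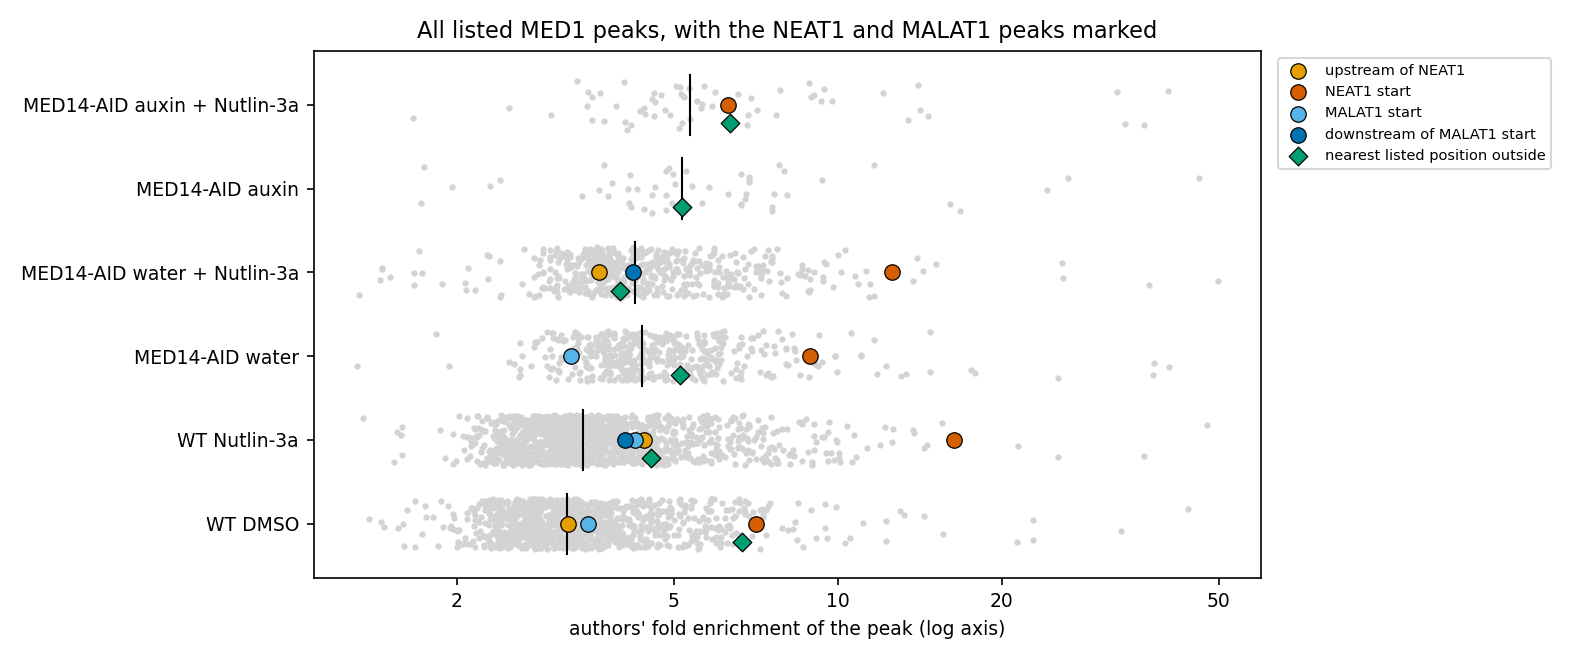
The authors' fold of every listed peak (grey, log axis) in each list, with the list median as a black line, the window's peaks as coloured circles and the nearest listed position outside it as diamonds. NEAT1 stands far to the right of the median in the 4 lists without auxin, at 16.3 where the median of WT Nutlin-3a is 3.41, and the other window peaks lie among the bulk.

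The NEAT1 start peak was wide in the 4 lists without auxin, and its summits lay close together. It measured 755 bases with auxin and Nutlin-3a, 2142 with water and Nutlin-3a, 2384 with water, 2911 in WT cells with Nutlin-3a and 2773 with DMSO. List medians were between 663 and 833 bases. The summits lay at 65190029 with auxin and Nutlin-3a, at 65190041 with water and Nutlin-3a and at 65190055 with water. In WT cells they lay at 65190041 with Nutlin-3a and at 65190081 with DMSO. The 5 summits thus fell within 52 bases beside the NEAT1 start, and the list with water and Nutlin-3a and the WT Nutlin-3a list gave the same base. Among the 453 peaks with water and Nutlin-3a that overlap a WT Nutlin-3a peak, this was the only one with a summit distance of 0, against a median of 99 bases. That was the closest of the compared pairs of lists at the NEAT1 start. In the other pairs the distance was 12 to 40 bases, and 10.3% to 29.9% of overlapping peaks, NEAT1 included, were as close or closer. In the lists without auxin the peak reached 1450 to 1722 bases to the left of its summit, the upstream side of NEAT1, and 674 to 1225 bases to the right. With auxin and Nutlin-3a it reached 449 bases to the left and 305 to the right.

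To see how the locus compared with other positions after p53 induction, the lists with Nutlin-3a were set against those without it. In WT cells, 3 of the 4 window peaks with Nutlin-3a overlapped a DMSO peak, as did 65.0% of all Nutlin-3a peaks, and 3 of 3 DMSO peaks overlapped a Nutlin-3a peak, as did 73.5% of all DMSO peaks. At the NEAT1 start the fold with Nutlin-3a was 2.31 times that with DMSO. The median ratio over the 815 overlapping peaks was 1.09, and 4 of them (0.491%), NEAT1 included, had a ratio at least that of NEAT1. Among overlapping peaks in the tenth of the Nutlin-3a list with the highest fold, the same 4 made up 3.51% of 114, a setting chosen after the data were seen. The 3 positions with a higher ratio than NEAT1 had folds with Nutlin-3a of 8.27 on chromosome 17 from 39109297, 7.55 on chromosome 12 from 52889951 and 6.41 on chromosome 11 from 2150578. These 3 were chosen after their values were seen. By the ratio of −log10 q the standing was lower, with 96 of the 815 peaks (11.8%) at least as high. The other window peaks shared by both WT lists had ratios of 1.38 upstream of NEAT1 and 1.22 at the MALAT1 start, which 17.7% and 32.4% of the overlapping peaks matched or passed.

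**Figure D4:**
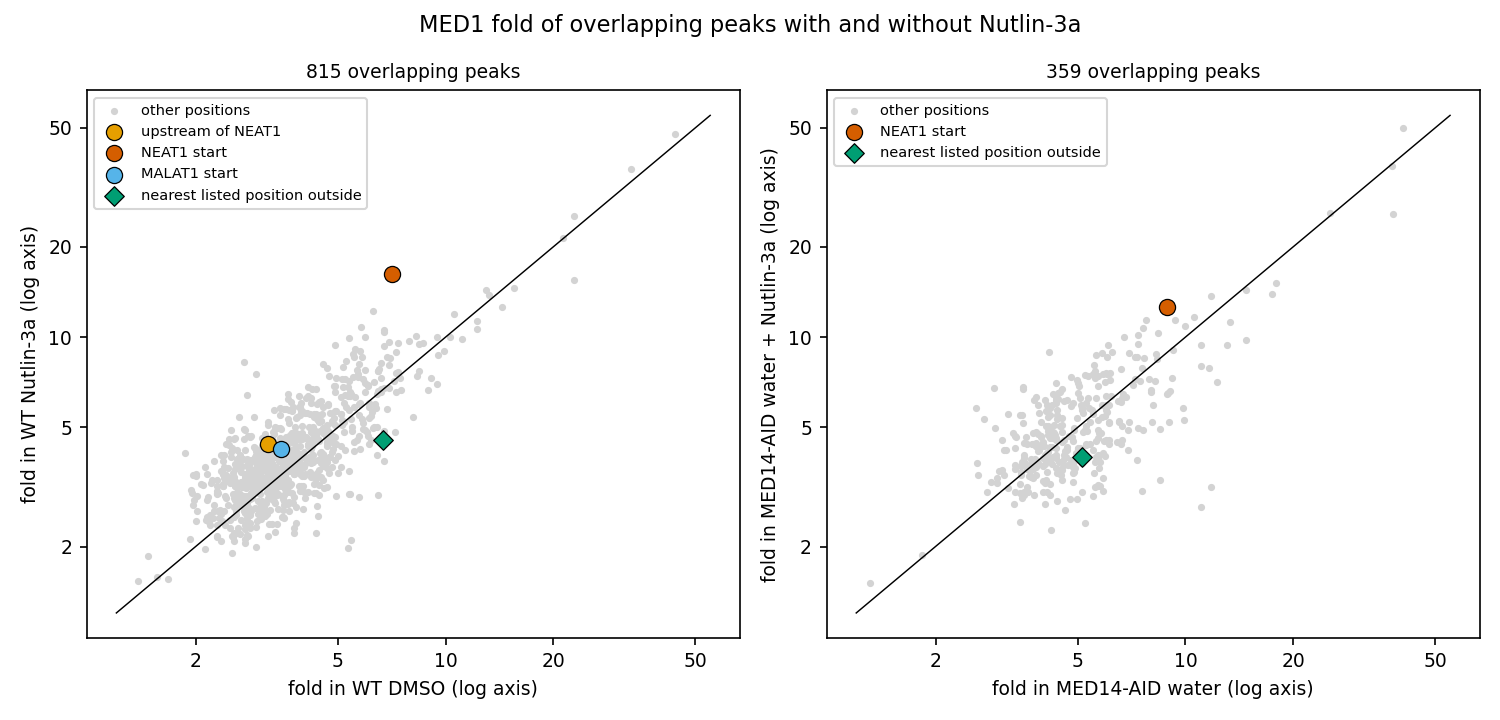
The authors' fold of overlapping peaks with Nutlin-3a (vertical, log axis) against that without it (horizontal, log axis) in WT cells (left, 815 peaks) and in the water-treated MED14-AID line (right, 359 peaks); the line marks equal folds. The NEAT1 start lies above the line in both, at ratios of 2.31 and 1.42. The nearest listed position outside the window lies below it, at 0.680 and 0.776, which rank 790 of 815 and 285 of 359.

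Without auxin, the MED14-AID line showed a smaller ratio at NEAT1 than WT cells. Of the 3 window peaks with water and Nutlin-3a, 1 overlapped a peak of the list without Nutlin-3a, against 68.8% of all peaks of that list. Of the 2 peaks with water alone, 1 overlapped a peak with Nutlin-3a, against 77.5% of all. The fold at the NEAT1 start with Nutlin-3a was 1.42 times that with water alone. The median ratio over 359 overlapping peaks was 0.997, and 38 of them (10.6%) had a ratio at least as high. That share was 16.7% by the ratio of −log10 q and 22.6% (12 of 53) among overlapping peaks in the tenth of the list with the highest fold, settings chosen after the data were seen. The difference between the WT and the MED14-AID ratio was not tested. The width at the NEAT1 start was 0.898 times that with water alone in the MED14-AID line and 1.05 times that with DMSO in WT cells. The widths were thus closer to equal than the folds.

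After MED14 depletion, the start of NEAT1 was the only listed place of the window, and only where Nutlin-3a followed. Of 3 window peaks with water and Nutlin-3a, 1 overlapped a peak with auxin and Nutlin-3a, against 9.0% of all 522. Neither of the 2 peaks with water alone overlapped a peak with auxin alone, against 9.50% of all 463. The 1 auxin and Nutlin-3a peak overlapped a peak with water and Nutlin-3a, as did 74.2% of that list, and none with auxin alone, against 51.5% that did. At NEAT1 the fold with auxin and Nutlin-3a was 0.499 times that with water and Nutlin-3a. The median ratio over 49 overlapping peaks was 0.867, and 83.7% of them had a ratio at least that of NEAT1. These 49 are only the positions still listed with auxin and Nutlin-3a. Positions no longer listed have no ratio, so the standing does not place NEAT1 among all positions. The weakest peak of the list with auxin alone had a −log10 q of 2.76, while the WT DMSO list went down to 1.58. The caller's limit is not stated, and MED1 binding under it is not seen in the lists.

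**Figure D5:**
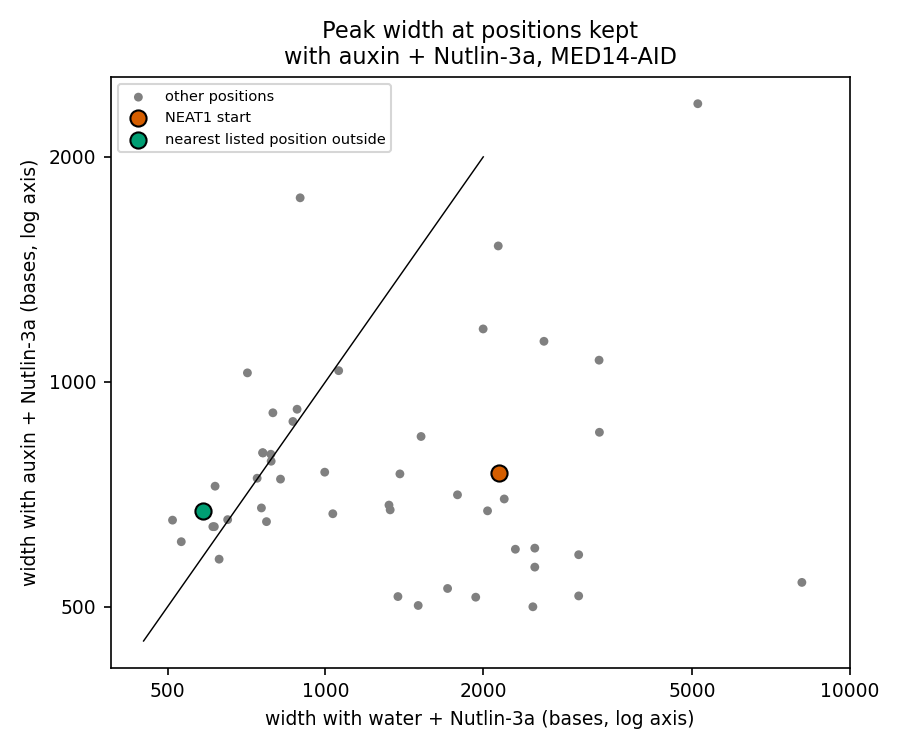
Width of the 49 peaks with auxin and Nutlin-3a (vertical, bases, log axis) against the width of the overlapping peak with water and Nutlin-3a (horizontal, bases, log axis); the line marks equal widths. The NEAT1 start lies below the line at 755 against 2142 bases, and the nearest listed position outside the window lies near the line at 672 against 584 bases.

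The peak with auxin and Nutlin-3a covered 35.2% of the bases of the peak with water and Nutlin-3a and lay wholly inside it. Among the 49 overlapping peaks, all of them still listed with auxin and Nutlin-3a, the median ratio of widths was 0.645. Of these, 30.6% had a ratio as low as the 0.352 of NEAT1 or lower. With a reciprocal overlap of 50% the NEAT1 start would not count as listed in both. Of 288 regions that all 4 auxin-free lists share, 12 (4.17%) were listed after auxin and Nutlin-3a and not after auxin alone, NEAT1 among them, while 31 were in both auxin lists, 1 in that with auxin alone and 244 in neither. NEAT1 had the highest fold of the 12 with auxin and Nutlin-3a, 6.29 against 5.64 for the next of the 12. That next one, on chromosome 12 from 52674210 to 52674881, was chosen after its value was seen. NEAT1 also had the highest fold of the 12 with water and Nutlin-3a, 12.6 against a median of 6.32. Of the 31 regions kept in both auxin lists, 8 had a higher fold than NEAT1 with water and Nutlin-3a. None of the 244 regions in neither auxin list did, the highest being 11.4. Because the window was selected on fold in these same lists, these standings support no claim about NEAT1.

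Upstream of NEAT1, at chr11:65185758-65187232, MED1 was listed in 3 lists, at lower folds than at the NEAT1 start. The fold was higher than that of 28.7% of all peaks with water and Nutlin-3a, 75.8% in WT cells with Nutlin-3a and 50.2% with DMSO. It was 3.65 with water and Nutlin-3a, with no peak with water alone or in either auxin list. It was 4.41 in WT cells with Nutlin-3a and 3.19 with DMSO. The widths were 732 bases with water and Nutlin-3a, 1475 in WT cells with Nutlin-3a and 1124 with DMSO. The summits of this region scattered more than those at the NEAT1 start, over 443 bases. The WT Nutlin-3a and DMSO summits were those 443 bases apart, and 8.59% of the 815 overlapping WT peaks had a summit distance at least as long. The region ended 1113 bases before the region at the NEAT1 start began, and in the 3 lists the summits of the pair were 3274 to 3677 bases apart. The gap kept the pair as separate regions when peaks up to 1 kb apart were joined.

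MALAT1 had MED1 peaks at 2 places, lower than those at the NEAT1 start, and which of them was listed differed between lists. At the MALAT1 start, chr11:65264604-65265588, the fold was 3.24 with water alone, and no peak was listed there with water and Nutlin-3a or in either auxin list. It was 4.24 in WT cells with Nutlin-3a and 3.47 with DMSO. The 3 summits, at 65265102 with water, 65265089 in WT cells with Nutlin-3a and 65265042 with DMSO, fell within 60 bases. The second place, chr11:65265721-65266949, was listed only in 2 lists with Nutlin-3a. It lies downstream of the MALAT1 start near 65.265 Mb, the only hg19 start at hand. Its fold was 4.20 with water and Nutlin-3a and 4.06 in WT cells with Nutlin-3a. The summits, at 65266399 and 65266470, were 71 bases apart. The place was listed with Nutlin-3a and not without it in both lines outside auxin, as were 25 of the 405 regions (6.17%) that the WT Nutlin-3a list shares with that of water and Nutlin-3a. In WT cells with Nutlin-3a, the pair of MALAT1 peaks was separated by 132 bases with summits 1381 bases apart. The RefSeq starts are 1307 bases apart in the other build. Whether either peak lies at either of those starts was not checked. With a gap of 1 kb both places count as 1 region, present in all 4 lists without auxin, and the place is then no longer listed with Nutlin-3a alone. No MALAT1 peak was in either auxin list. The highest MALAT1 peak of a list had a higher fold than 48.3% of all peaks with water and Nutlin-3a, 8.64% with water, 73.3% in WT cells with Nutlin-3a and 61.0% with DMSO. The −log10 q of the MALAT1 peaks was 8.80 with water and Nutlin-3a and 5.52 with water. In WT cells it was 20.8 and 16.9 with Nutlin-3a, at the start and downstream, and 11.4 with DMSO.

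Every window peak of the MED14-AID line without auxin overlapped a WT peak under the matching treatment, as did most peaks of those lists. All 3 window peaks with water and Nutlin-3a overlapped a WT Nutlin-3a peak, as did 86.8% of that list. Both peaks with water overlapped a WT DMSO peak, as did 85.1%. With a reciprocal overlap of 50%, 1 of the 3 with water and Nutlin-3a did, against 57.7% of that list. Both with water still did, against 59.2%. In the other direction 3 of 4 WT Nutlin-3a peaks (33.2% of all) and 2 of 3 WT DMSO peaks (33.3% of all) overlapped a peak of the MED14-AID line. At the NEAT1 start the fold with water and Nutlin-3a was 0.773 times that of WT Nutlin-3a, against a median of 0.960 over 453 overlapping peaks, and 74.4% had a ratio at least as high. With water alone it was 1.26 times that of WT DMSO, against a median of 1.09 over 394 overlapping peaks, and 32.0% had a ratio at least as high. The lines stood in opposite order at NEAT1 with and without Nutlin-3a. Line, mock treatment and number of libraries differ together between these lists and cannot be told apart.

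Windows opened at listed peaks often held as many peaks as the locus. Windows of the same 150 kb length opened at every peak held at least 4 peaks in 31.0% of cases in WT cells with Nutlin-3a, with up to 22, and at least 3 in 37.4% with DMSO. The same share was 45.2% for 3 peaks with water and Nutlin-3a and 62.0% for 2 with water. Peaks of a cluster open overlapping windows, so dense clusters are counted repeatedly and the shares do not cover windows without peaks. The nearest listed position before the window was chr11:65028916-65029751 in WT DMSO, 156232 bases away from the first window peak. It was listed in all 6 lists. Its fold was 6.34 with auxin and Nutlin-3a and 5.18 with auxin, 3.98 with water and Nutlin-3a and 5.13 with water, and 4.54 in WT cells with Nutlin-3a and 6.67 with DMSO. This neighbour had its lower value with Nutlin-3a in both lines outside auxin, where the NEAT1 start had its higher one. Its ratio of folds stood low among overlapping peaks, at number 790 of 815 in WT cells and 285 of 359 with water. The neighbour was listed with auxin alone, where NEAT1 was not. With auxin and Nutlin-3a it was the next higher peak above NEAT1 by fold. After the window the next listed peak was 399687 bases away in WT cells with Nutlin-3a and 401092 with DMSO, and 1874617 and 1875900 bases away in the MED14-AID line with water and Nutlin-3a and with water alone.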

How the data were processed

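MED1 ChIP-seq and input samples were grouped by their titles. The submitters' processing notes name hg19, Bowtie 0.12.9 and MACS2 2.1.2 without their settings, and reads and peaks were not processed again. Both WT replicates of a condition point to 1 joint list per the labels, while a MED14-AID list comes from a single library. The authors' fold is the ratio over background that the caller gave for a peak. The deposited −log10 values of q are used, and those of p are not. The deposited score repeated −log10 q, multiplied by 10 and without its decimals, in all 6 lists. The lists give no counts, so depth is unknown and could set which peaks were listed.

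Peaks overlapping the window by at least 1 bp were taken, assigned to the nearer of the 2 gene starts by summit, and merged across lists by overlap. Overlapping peaks of 2 lists were paired by their longest overlap. Folds were compared as ratios and placed among all pairs, with no scaling for depth. Positions are hg19 and 1-based. Every window peak is named, others only where they stand next to one in the order of a list, and exceptions are marked. Of the 2 genes, MALAT1 matched 2 entries of the promoter table and NEAT1 none. The planned counts over paraspeckle and nuclear speckle genes are not analysed here, for lack of an hg19 annotation. The window, members and settings were chosen with earlier results of these data known. Alternatives are given in the closing section. The work used matplotlib 3.10.9, scipy 1.17.1, pandas 2.3.3 and numpy 2.4.6 in Python 3.11.15. Overlap counts were checked against bedtools 2.31.1, with 0 of 14 different. The pairing was tested on simulated data made of slightly shifted copies of WT DMSO peaks. That test does not cover peaks that differ in width or split between lists.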

Additional observations from a re-analysis of the deposited data

How the results depend on the processing

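No paired analysis was possible because each WT condition has 1 joint list of both replicates, and for the same reason no replicate could be left out. The number of peaks in the window stayed within 1.5 times under a summit rule, a window 50 kb longer or 25 kb shorter at each end, and −log10 q of at least 5, in every list. At −log10 q of at least 10 it was 1 with water and Nutlin-3a and 1 with water. Merged regions per list also stayed within that range when gaps of 1 kb were joined. Of 70 counts of window peaks shared between lists under another setting, 60 stayed within it. These 60 include all counts that involve the list with auxin alone, which has 0 window peaks, so those could not move. A fall from 3 to 2 also counts as within the range, so the 60 say little about stability. With a gap of 1 kb, 2 peaks with water and Nutlin-3a and 2 with water were shared between those lists. With reciprocal overlap of 50%, 0 were shared between the list with auxin and Nutlin-3a and that with water and Nutlin-3a, either way, and 1 between water and Nutlin-3a and WT Nutlin-3a, either way. At −log10 q of at least 10, 1 was shared between water and Nutlin-3a and WT Nutlin-3a and 1 between water and WT DMSO, either way. Stricter limits leave fewer peaks by construction. Covered bases stayed within 1.5 times in 29 of 30 values, and the shares of whole lists that overlapped stayed within their Wilson intervals in 38 of 70. These intervals serve only as a yardstick here and measure no spread between replicates.

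Among peaks at least as wide as the list median, the share with a lower fold than the NEAT1 peak was 39.4% with auxin and Nutlin-3a, 91.4% with water and 93.3% in WT DMSO. For the MALAT1 peak it was 27.6% with water and Nutlin-3a, 5.60% with water, 54.1% in WT cells with Nutlin-3a and 40.9% with DMSO, and 21.0% with water by −log10 q. Windows covering at least as many bases made up 37.9% with auxin and Nutlin-3a, 32.8% with water and Nutlin-3a, 37.8% with water, 22.2% in WT cells with Nutlin-3a and 25.1% with DMSO. Stitched regions, with peaks up to 10 kb apart joined, of at least as many peaks made up 28.7% with water and Nutlin-3a, 100% with water, 24.3% in WT cells with Nutlin-3a and 19.8% with DMSO. The 100% with water was fixed in advance, since no window peaks were joined there and every region holds a peak. The place of NEAT1 by the ratio of folds was recomputed under settings chosen after the data were seen. In WT cells, 11.8% of overlapping peaks were at least as high by the ratio of −log10 q and 3.51% within the tenth of the list with the highest fold. With water these shares were 16.7% and 22.6%. With reciprocal overlap, and at −log10 q of at least 10, they stayed within their Wilson intervals. The cause of these shifts was not tested. Unknown depth and the caller's threshold limit what an absent peak means.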
